A study of Mus musculus with 4 samples.

Results

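The genes described here are the chemokine and chemokine receptor genes of the mouse, and the data are the chromatin contacts of their promoters in bone marrow-derived macrophages (BMDMs). Members are the autosomal protein-coding genes of the GENCODE M21 basic annotation whose symbol is Ccl, Cxcl, Ccr, Cxcr or Ackr followed by a number, or is Cx3cl1 or Cx3cr1. Symbols with a letter after the number, such as Ccl21a and Ccr1l1, were included. The 56 members described here are among 20720 such genes. Their promoters took part in 453 of the 237102 listed interactions, or 0.191%.

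Marrow from C57BL/6J mice was differentiated into BMDMs for 7 days in medium with M-CSF. The cells were then given 20 ng/mL mouse IL-4 for 24 h (2 samples) or were left untreated, which is the basal state (2 samples). H3K4me3 HiChIP was run on the crosslinked cells. HiChIP joins DNA ends that lie close together in the nucleus and enriches them with an antibody, here to H3K4me3, which marks active promoters. Reads of the 4 samples were merged before pairs of 5-kb bins were called, so the values are 1 list of significant pairs, each with 1 observed and 1 expected count. IL-4-treated and basal BMDMs therefore could not be compared, there is no error between replicates, and sample depths are unknown. Intervals given with single ratios below are exact 95% Poisson intervals of the observed count divided by the expected count, and cover counting error only. No test was made, and every comparison with all genes is a description.

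Chemokines are small secreted proteins that guide the migration of leukocytes, and their receptors are membrane proteins that signal through G proteins of the inhibitory class. Most chemokine genes lie in tandem clusters that arose by gene duplication, so neighbours often have related sequences and share receptors. Macrophages both make chemokines and respond to them, and alternative activation by IL-4 is known for ligands such as Ccl17, Ccl22 and Ccl24. Atypical receptors, named Ackr, bind chemokines without this G protein signalling.

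The bin pairs are anchored on H3K4me3, so a gene without the mark can be listed only as the partner of a marked bin, and a count of 0 says nothing of contacts that the assay did not test. A count of interactions is not an expression level. Over all 20720 autosomal protein-coding genes, 70.4% had at least 1 interaction, with a median of 4. Of the macrophage markers 10 of 10 had at least 1 interaction, with a median of 17. The same count was 6 of 6 for T cell markers with a median of 1, 4 of 4 for B cell markers with a median of 4, 3 of 4 for neutrophil markers with a median of 2.5, and 1 of 4 for fibroblast markers with a median of 0.

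Promoter sequences were taken from RefSeq (GRCm38.p6), from 250 bases before to 50 bases after the start, and 43 of the 56 members matched by symbol. Ccl2, Ccl4, Ccl5, Ccl7, Ccl11, Ccl24, Ccl26, Ccr7, Ccr10, Cxcl5, Cxcl16, Cxcl17 and Cxcr5 are named only. Each window was searched on both strands for 8 short words: GGGANTTTC for NF-kB, GAGGAAGT for PU.1, TGANTCA for AP-1, TTGCNNAA for C/EBP, TTCNNNGAA for STAT factors, GAAANNGAA for interferon-stimulated response elements (ISRE), GCGTGGGCG for EGR factors and CCAGGGGGC for CTCF. No match of 1 word overlapped a match of another in these windows. Capitals mark a match, and positions count from the start site, with negative numbers before it. Shown first is the promoter of Cxcr4, the member with the most interactions, then 5 promoters that carry a word named below.
Cxcr4 promoter, chr1:128592250-128592549, minus strand: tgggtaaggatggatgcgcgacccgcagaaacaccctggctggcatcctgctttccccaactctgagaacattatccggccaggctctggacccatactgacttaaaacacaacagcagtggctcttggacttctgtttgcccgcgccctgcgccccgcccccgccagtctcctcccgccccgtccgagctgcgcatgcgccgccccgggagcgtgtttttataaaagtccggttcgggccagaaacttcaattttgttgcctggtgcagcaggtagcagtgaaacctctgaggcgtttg
Cxcl1 promoter, chr5:90890995-90891294, plus strand: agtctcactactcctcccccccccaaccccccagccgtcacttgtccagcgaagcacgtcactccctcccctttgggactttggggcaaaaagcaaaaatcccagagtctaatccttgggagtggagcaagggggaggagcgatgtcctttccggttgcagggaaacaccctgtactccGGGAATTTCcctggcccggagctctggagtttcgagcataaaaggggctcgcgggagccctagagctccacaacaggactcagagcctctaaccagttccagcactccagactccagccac
Cxcl2 promoter, chr5:90903649-90903948, plus strand: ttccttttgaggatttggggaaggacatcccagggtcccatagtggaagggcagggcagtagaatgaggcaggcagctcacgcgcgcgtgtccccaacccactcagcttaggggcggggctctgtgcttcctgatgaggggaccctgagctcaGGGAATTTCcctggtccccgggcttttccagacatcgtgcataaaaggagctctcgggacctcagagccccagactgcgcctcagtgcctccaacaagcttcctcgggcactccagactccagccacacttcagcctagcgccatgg
Cxcl10 promoter, chr5:92348840-92349139, minus strand: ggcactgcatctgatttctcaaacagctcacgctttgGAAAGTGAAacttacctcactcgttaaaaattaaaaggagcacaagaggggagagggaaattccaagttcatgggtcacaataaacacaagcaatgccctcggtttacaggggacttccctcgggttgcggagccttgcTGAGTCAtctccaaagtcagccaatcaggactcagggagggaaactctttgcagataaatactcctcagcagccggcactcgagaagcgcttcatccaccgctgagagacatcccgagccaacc
Ccl17 promoter, chr8:94810203-94810502, plus strand: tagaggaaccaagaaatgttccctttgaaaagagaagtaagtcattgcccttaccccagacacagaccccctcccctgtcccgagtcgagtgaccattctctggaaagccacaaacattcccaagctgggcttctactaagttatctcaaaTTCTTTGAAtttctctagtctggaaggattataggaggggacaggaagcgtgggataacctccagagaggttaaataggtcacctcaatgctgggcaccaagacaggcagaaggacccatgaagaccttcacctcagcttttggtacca
Ccl9 promoter, chr11:83578587-83578886, minus strand: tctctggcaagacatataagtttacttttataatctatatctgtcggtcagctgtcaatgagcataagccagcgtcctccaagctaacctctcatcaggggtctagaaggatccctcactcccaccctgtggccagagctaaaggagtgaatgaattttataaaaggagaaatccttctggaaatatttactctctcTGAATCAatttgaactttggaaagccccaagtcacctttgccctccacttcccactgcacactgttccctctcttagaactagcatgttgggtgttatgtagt

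The NF-kB word was in the promoters of 6 of the 43 members, namely Ccr3, Cxcl1, Cxcl2, Cxcl3, Cxcl9 and Cxcr2. That is 14%, against 1.13% of all 31365 autosomal promoter windows. The 43 members had 50 windows. A member counted if any of its windows held the word, while the share over all is per window, which can raise the members' shares here. Cxcl1 held it at position -71 and Cxcl2 at -97, with the same 9 letters in both. Cxcl1 and Cxcl2 are neighbouring genes of neutrophil chemoattractants. The AP-1 word was in 9 members, or 20.9%, against 7.85% of all windows, and the ISRE word in 8, or 18.6%, against 8.52%. Ccl9 held the AP-1 word at -53. Cxcl10, a chemoattractant of T cells named for its induction by interferon, held the ISRE word at -213 and the AP-1 word at -74. STAT words were in 4 members (9.3%, against 8.34%), among them Ccl17 at -99, and C/EBP words in 5 (11.6%, against 10.9%). PU.1, EGR and CTCF words were in 0 of the 43, against 3.25%, 0.606% and 1.05% of all windows. Duplicated neighbours are not independent sequences, and a match is not a binding site.

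Of the 56 members, 40 had at least 1 interaction, which is 71.4%, against 70.4% of all genes. At least 10 interactions were found for 13 of the 56 members, a smaller share than the 36.0% of all genes. The median was 2 interactions per member, with quartiles of 0 and 7.5, against a median of 4 over all genes, with quartiles of 0 and 17. Members were thus listed about as often as other genes, but those that were listed had fewer interactions, with a median of 4, against 10 for all genes with at least 1. A few genes stood far above the rest. Cxcr4 had 115 interactions, Ccl25 had 63 and Ccr9 had 40, together 48.1% of those of the family. These are bin pairs, many of them neighbours. In the deposited list they fell into 5 clusters of bin pairs for Cxcr4, 12 for Ccl25 and 13 for Ccr9, so Cxcr4 does not lead by that count.

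**Figure D1:**
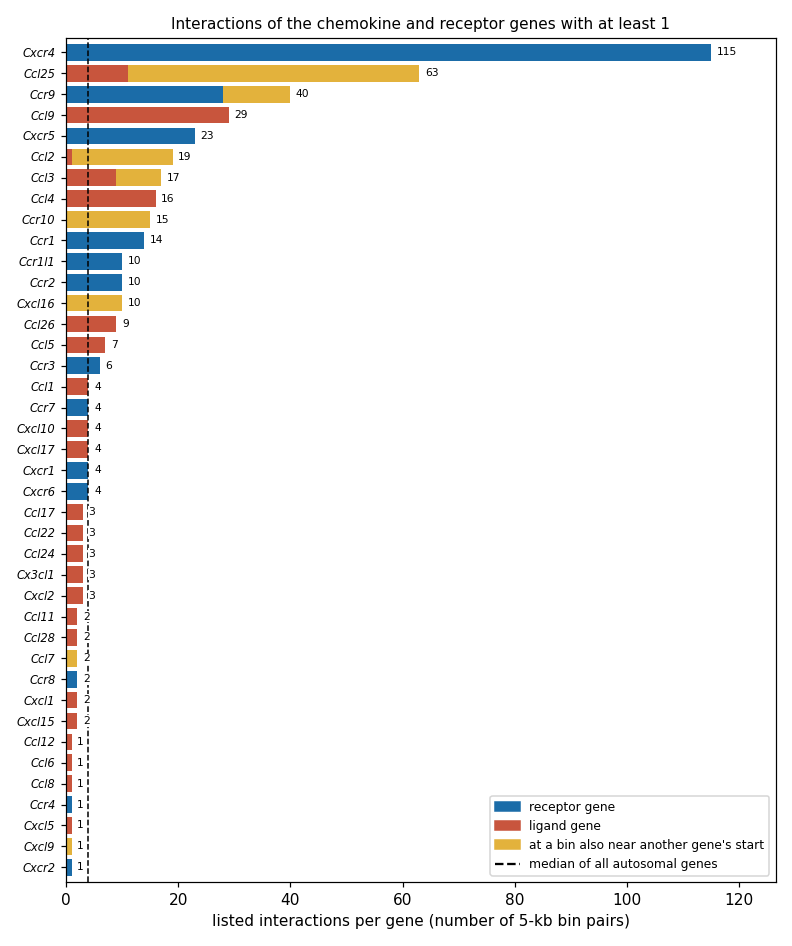
Bars give the number of listed interactions of each of the 40 chemokine and receptor genes with at least 1, with receptors in blue, ligands in red and, in yellow, interactions at bins that also lie near the start of a gene outside the family. Cxcr4 stands at 115, Ccl25 at 63 and Ccr9 at 40, and 18 genes lie below the dashed line, the median of 4 over all autosomal genes.

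Over all genes, 70.4% had at least 1 interaction and 36.0% at least 10, with a median of 4. By role, 14 of the 16 signalling receptor genes had an interaction, with a median of 5, and 7 had at least 10. Of the 36 ligand genes 26 had an interaction, with a median of 2, and 6 had at least 10. CC ligands numbered 17 of 23 with an interaction, with a median of 2, and CXC ligands 8 of 12, with a median of 1.5. Ccr10, Cxcl16 and Ccl2 count here among the genes with at least 10. All or most of their interactions were at bins also near another gene's start. None of the 4 atypical receptor genes, Ackr1 to Ackr4, was in the list. Cxcr3, the receptor of Cxcl9 and Cxcl10, is X-linked and was not analysed here.

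The remaining members at 0 interactions were the receptor genes Ccr6 and Cx3cr1 and the ligand genes Ccl19, Ccl20, Ccl21a, Ccl21b, Ccl27a, Ccl27b, Cxcl3, Cxcl12, Cxcl13 and Cxcl14. Most of these ligands are homeostatic and are made by stromal or epithelial cells: Ccl19 and Ccl21a guide cells to lymph nodes through Ccr7, and Cxcl12 is the ligand of Cxcr4. Cx3cr1, the fractalkine receptor of monocytes and many tissue macrophages, also had 0. The 5 genes of the chromosome 4 cluster (Ccl19, Ccl21a, Ccl21b, Ccl27a and Ccl27b) all had 0. Several of them have near-identical copies in that region, to which short reads may not map uniquely, so their 0 is uncertain.

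The 453 interactions had observed counts of 6 to 402 and observed over expected ratios of 2 to 16.5, where 2 is the lowest ratio in the whole list. Their median ratio was 3.15, against 3.03 over all 182854 promoter interactions. The median distance was 135 kb, against 190 kb. Between 200 and 500 kb the median ratio was 4.17 for 81 interactions of members, against 3.28 for all promoter interactions, and between 100 and 200 kb it was 3.21, against 2.83. Without Cxcr4 the medians of the members were 3.42 at 200 to 500 kb and 3.14 at 100 to 200 kb. Below 50 kb the median was 2.3 for members, against 2.44.

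**Figure D2:**
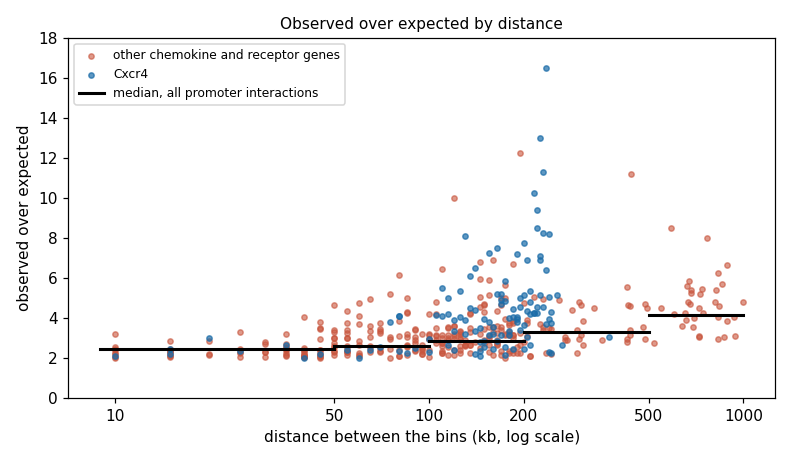
Each point is 1 interaction of a chemokine or receptor gene, by the distance between its bins (kb, log scale) and its observed over expected ratio, with Cxcr4 in blue. Black lines are the medians of all promoter interactions in 5 distance ranges, and the points above a ratio of 10 lie between 120 and 440 kb.

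At the partner end, 203 interactions (44.8%) met an intergenic bin, 142 (31.3%) the promoter of a gene outside the family, 68 (15%) an exon, 27 (5.96%) an intron and 13 (2.87%) a promoter of the family. Those 13 include other starts of the same gene and the family gene not reported here, and 8 joined 2 different members. A protein-coding start lay at both ends in 34.2%, or in 43.8% without Cxcr4, against 16.6% of all promoter interactions. A pair with starts at both ends can enter the family's list through either end. This raises the members' share, so the shares cannot be compared directly. A bin can hold several genes: 116 interactions (25.6%) were at member bins that also lay near the start of a gene outside the family, and these cannot be given to either gene. Among them were 52 of the 63 of Ccl25 with Elavl1, 18 of the 19 of Ccl2 with Gm17268, 12 of the 40 of Ccr9 with Slc6a20a, and all of Ccr10 (15), Cxcl16 (10), Ccl7 (2) and Cxcl9 (1). With those 116 left out, 36 members kept at least 1 interaction.

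Cxcr4 encodes the receptor of Cxcl12 and holds haematopoietic cells in the bone marrow. The gene (chromosome 1, 128588199 to 128592293, minus strand, mm10) ranked number 66 of 20720 genes by its 115 interactions, all at bins near no other gene's start. They fell into 5 deposited clusters of bin pairs, and made up 25.4% of the family's interactions and 30.2% of its summed observed counts. Of these interactions 86 met an intergenic bin, 16 a bin with an exon, 6 an intron and 7 the start of another gene. On the upstream side there were 64, reaching 265 kb with a median ratio of 4.11, and on the downstream side 51, reaching 375 kb with a median ratio of 3.71.

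The highest ratio of the whole family was between the Cxcr4 promoter bin and chr1:128825001-128830000, 235 kb upstream. It had 246 observed counts for 14.9 expected, a ratio of 16.5 (14.5 to 18.7). The partner bin is intergenic, and the nearest protein-coding start to it is that of Cxcr4 itself. Bins on both sides were lower. Those 5 and 10 kb nearer to Cxcr4 had 159 and 128 counts with ratios of 11.3 and 13, and the bins 5 and 10 kb farther had 125 and 47 counts with ratios of 8.17 and 4.29. This bin took part in 6 interactions in the whole list, 2 of them with Cxcr4 bins. The second, from the neighbouring Cxcr4 bin, had 37 counts and a ratio of 5.06 (3.56 to 6.98). A smaller peak stood 130 kb upstream, with 172 counts and a ratio of 8.11 (6.94 to 9.41).

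Downstream, the strongest partners lay 200 to 230 kb away inside Dars, which encodes aspartyl-tRNA synthetase, and by the start of its neighbour Mcm6, a subunit of the replicative helicase. The highest was in an exon-bearing bin of Dars, with 117 counts and a ratio of 10.2 (8.47 to 12.3), and 2 bins lay at or near the Mcm6 start. The one inside Dars had 91 counts and a ratio of 8.22 (6.62 to 10.1), and the one that overlaps Mcm6 had 65 counts and 3.71 (2.86 to 4.72). The highest raw count of Cxcr4, 249, was only 20 kb downstream and had a ratio of 3 (2.64 to 3.4). Counts near the gene were thus as high as at 235 kb, but against an expected count of 82.9, not 14.9.

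**Figure D3:**
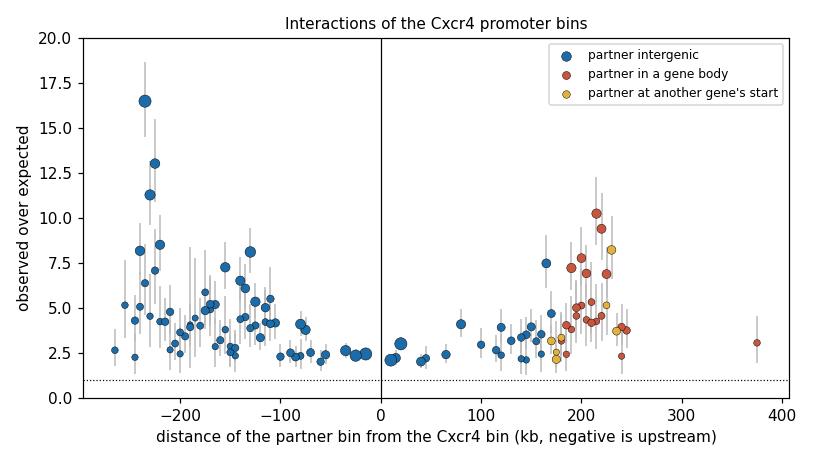
Each point is 1 of the 115 interactions of Cxcr4, by the distance of the partner bin (kb, negative upstream) and its observed over expected ratio. Vertical lines are 95% Poisson intervals, larger points have higher observed counts, colours give the partner's annotation, and the dotted line marks a ratio of 1. Ratios peak at 16.5 at 235 kb upstream and at 10.2 at 215 kb downstream, inside Dars.

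The distal Cxcr4 bin held 2 AP-1 words, 1 STAT word and 1 PU.1 word within its first 300 bases. PU.1 is the lineage-determining factor of macrophages, and AP-1 is active in many enhancers of these cells. PU.1 words occurred in 28.1% of all listed bins, in 33.4% of the 302 partner bins of the family, and in 5 of the 10 bins reached by at least 3 members. AP-1 words occurred in 78.2% of all listed bins and in 76.5% of the partner bins of the family, and STAT words in 80% and 81.8%, so such words are common in 5 kb. The stretches lie in the highest-ratio partner bins of Cxcr4 and of Ccl17, and in the bin contacted by promoter bins of all 6 Ccl2 cluster genes. They are a selection, not all the words of those bins. The Cxcr4 bin also held C/EBP and ISRE words. The Ccl17 bin also held PU.1, C/EBP and ISRE words and another STAT word. The Ccl2 cluster bin also held AP-1, C/EBP and ISRE words and another PU.1 word.
Cxcr4 distal bin, AP-1 word, chr1:128825090-128825136, plus strand: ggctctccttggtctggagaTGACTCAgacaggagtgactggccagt
Cxcr4 distal bin, PU.1 word, chr1:128825142-128825189, plus strand: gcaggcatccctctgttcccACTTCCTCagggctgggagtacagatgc
Cxcr4 distal bin, STAT word, chr1:128825209-128825257, plus strand: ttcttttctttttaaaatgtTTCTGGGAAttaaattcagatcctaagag
Cxcr4 distal bin, second AP-1 word, chr1:128825260-128825306, plus strand: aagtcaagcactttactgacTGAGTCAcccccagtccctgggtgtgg
Ccl17, Ccl22 and Cx3cl1 shared bin, STAT word, chr8:94702975-94703023, plus strand: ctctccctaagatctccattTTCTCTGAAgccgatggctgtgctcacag
Ccl17, Ccl22 and Cx3cl1 shared bin, AP-1 word, chr8:94704659-94704705, plus strand: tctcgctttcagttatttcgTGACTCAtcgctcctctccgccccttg
Ccl2 cluster shared bin, PU.1 word, chr11:82005976-82006023, plus strand: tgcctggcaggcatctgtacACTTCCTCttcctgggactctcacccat

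The receptor cluster on chromosome 9 is described over 123678439 to 124113557, with Ccr9, Cxcr6, Ccr1, Ccr1l1, Ccr3 and Ccr2. Ccr2 binds Ccl2 and brings monocytes out of the bone marrow, Ccr1 binds Ccl3 and Ccl5, Ccr3 is the eotaxin receptor of eosinophils, Ccr9 binds Ccl25, and Cxcr6 binds Cxcl16. All 6 genes had interactions, 82 in all, with a median ratio of 3.29. Ccr9 had 40, Ccr1 14, Ccr2 and Ccr1l1 10 each, Ccr3 6 and Cxcr6 4.

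Promoter bins of all 6 genes contacted the same 2 adjacent bins, chr9:123920001-123925000 and chr9:123925001-123930000, which lie between Cxcr6 and Ccr1 and near no protein-coding start. RefSeq places a long non-coding RNA gene, Gm51701, at 123925148 to 123928706 in the second bin, while GENCODE M21 lists no gene in either. Where several bins of a promoter met the same partner, here and for the clusters below, the pair with the highest ratio is given unless stated. The highest of these ratios was that of Cxcr6, 120 kb away, with 61 counts and a ratio of 10 (7.65 to 12.8) in the first bin, and 20 counts and 2.13 (1.3 to 3.29) in the second. The other Cxcr6 bin had 18 counts and 3.15 (1.87 to 4.98) with the first. The Cxcr6 bin with the ratio of 10 lies upstream of its gene, as does the Ccr1 bin of these contacts. Both count only because a start within 2500 bp of a bin was accepted. For Ccr2 the values were 31 counts and 6.68 (4.54 to 9.48) in the first bin, and 44 counts and 4.99 (3.63 to 6.7) in the second. Ccr1, the nearest at 50 kb, had 43 counts and 3.27 (2.37 to 4.41), and Ccr3 had 18 counts and 2.36 (1.4 to 3.73), the lowest ratio of these genes in that bin.

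These bins were not selective for the receptor promoters. The first took part in 80 interactions and the second in 51, against a median of 2 over the 129619 listed bins. The first was listed with 52 of the 85 possible bins across this span (61.2%) and the second with 32 (37.6%). Only 1890 of the 5000 bases of the first bin are known in the reference assembly, and 62.7% of those are G or C, so its expected count rests on less sequence than that of other bins. Its part in the high ratios was not tested. With that bin left out the family had 441 interactions and 40 members with at least 1, and Ccr1, Ccr1l1, Ccr2, Ccr3, Ccr9 and Cxcr6 all still contacted the second bin.

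Receptor promoters also contacted each other. Ccr1 was joined to Ccr2 over 135 kb with 25 counts and a ratio of 2.62 (1.7 to 3.87). Ccr1 and Ccr1l1, 15 kb apart, had 76 counts and 2.13 (1.68 to 2.67). The Ccr1 promoter had its highest ratio with an intergenic bin 195 kb upstream, with 18 counts and 12.3 (7.26 to 19.4). Ccr1l1 had 34 counts and 11.2 (7.76 to 15.7) with the start of Ppp2r3d, 440 kb away.

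**Figure D4:**
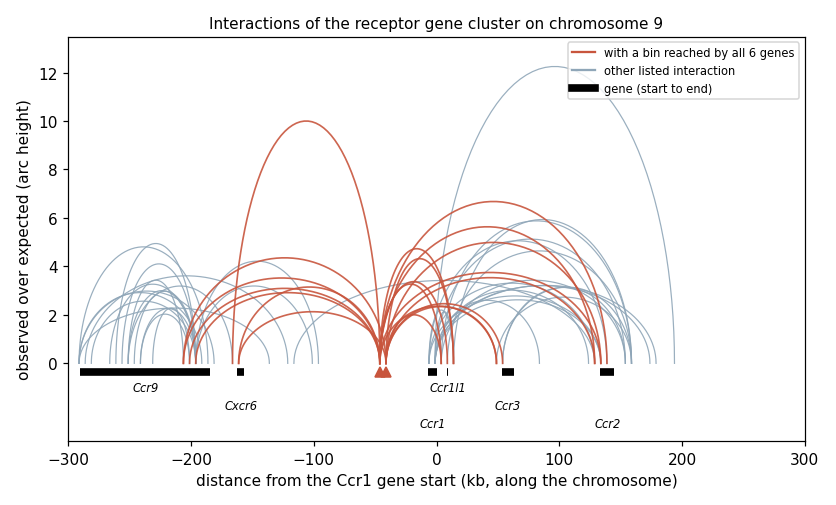
Arcs join the bins of each listed interaction of the 6 receptor genes within 300 kb of the Ccr1 start, with height equal to observed over expected; 58 of the 82 interactions fit the window. Red arcs are the 20 that end in the 2 bins reached by all 6 genes (triangles), and the tallest of them, at 10, belongs to Cxcr6.

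Chromosome 11 carries 2 clusters of CC ligands. In the one of Ccl5, Ccl9, Ccl6, Ccl3 and Ccl4 (83525778 to 83664683), all 5 genes had interactions, 65 in all, with a median ratio of 2.64 and a median distance of 85 kb. Ccl3 and Ccl4 are inflammatory chemokines made by macrophages, and Ccl9 and Ccl6 are rodent ligands of Ccr1. Ccl9 led with 29, followed by Ccl3 with 17, Ccl4 with 16, Ccl5 with 7 and Ccl6 with 1.

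The Ccl9 promoter contacted 3 other ligand promoters of its cluster. It was joined to Ccl6 over 15 kb with 204 counts and a ratio of 2.43 (2.11 to 2.79), to Ccl4 over 90 kb with 54 counts and 3.46 (2.6 to 4.51), and to Ccl3 over 70 kb with 83 counts and 2.34 (1.86 to 2.9). The Ccl3 bin of this last pair is also near the start of Rpl9-ps1, and a neighbouring Ccl3 bin near no other start had 37 counts and 2 (1.41 to 2.76). Ccl3 was joined to Ccl5 over 120 kb with 29 counts and 3.58 (2.4 to 5.14). The Ccl9 bin of the pairs above, chr11:83575001-83580000, was not selective for ligand promoters. It took part in 27 interactions and was listed with 13 of 25 possible bins of the span (52%). Ccl9 reached farthest on the upstream side, where 27 of its 29 interactions lay, with the highest ratio at 160 kb, 61 counts and 6.91 (5.28 to 8.87), in an intergenic bin near Wfdc21.

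Wfdc17, Wfdc18 and Wfdc21, genes of small secreted whey acidic protein-domain proteins, lie beyond Ccl4. The bin chr11:83705001-83710000, which overlaps Wfdc17 and Wfdc18, was reached by 4 of the 5 ligand genes. Ccl4 had 74 counts and a ratio of 4.04 (3.17 to 5.07) there, Ccl5 13 counts and 3.65 (1.94 to 6.24), Ccl9 19 counts and 3.21 (1.93 to 5.01), and Ccl3 39 counts and 2.6 (1.85 to 3.55). Their intervals overlap. Of 18 interactions of this bin in the whole list, 15 were within the span of the cluster, out of 35 possible bins (42.9%). Ccl5, at the far end of the cluster, also contacted starts of Taf15 at 55 kb (72 counts, ratio 2.16) and Heatr6 at 225 kb (19 counts, ratio 3.7). It met the start of Rpl9-ps1 at 115 kb with 14 counts and a ratio of 2.91. Its highest ratio, 4.5 with 14 counts, was with an intergenic bin 495 kb away.

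**Figure D5:**
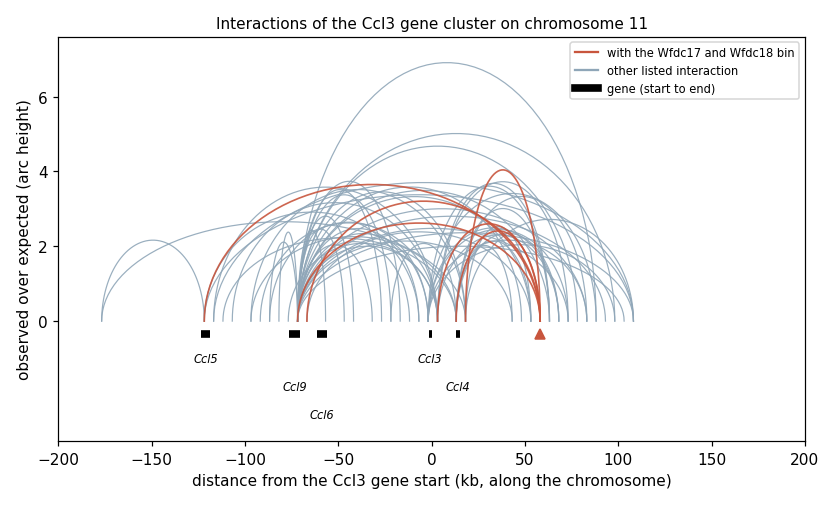
Arcs join the bins of each listed interaction of the 5 ligand genes within 200 kb of the Ccl3 start, with height equal to observed over expected; 63 of the 65 interactions fit the window. Red arcs are the 6 that end in the bin of Wfdc17 and Wfdc18 (triangle), and the tallest arc, at 6.91, belongs to Ccl9.

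The other chromosome 11 cluster holds Ccl2, Ccl7, Ccl11, Ccl12, Ccl8 and Ccl1 (82035571 to 82305690) and had 28 interactions with a median ratio of 3.12. Ccl2 is the main ligand of Ccr2, Ccl7, Ccl8 and Ccl12 also attract monocytes, Ccl11 is eotaxin, and Ccl1 is the ligand of Ccr8. Ccl2 had 19, Ccl1 4, Ccl7 and Ccl11 2 each, and Ccl12 and Ccl8 1 each. Of the 19 at Ccl2, 18 were at bins also near the start of Gm17268, which overlaps it.

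Promoter bins of all 6 genes contacted chr11:82005001-82010000, and for Ccl12 and Ccl8 it was the only partner. That bin lies inside a long non-coding RNA gene, Gm31522 (81983119 to 82019967), upstream of Ccl2. Ccl2 had 98 counts there over 30 kb and a ratio of 2.69 (2.19 to 3.28), and Ccl7 78 counts over 35 kb and 2.69 (2.12 to 3.36). Both of these pairs come from bins also near the start of Gm17268, so they cannot be given to either gene. Ccl11 had 55 counts and 3.23 (2.43 to 4.2), Ccl12 21 counts and 2.22 (1.37 to 3.39), Ccl8 29 counts over 105 kb and 4.21 (2.82 to 6.04), and Ccl1 22 counts over 175 kb and 3.96 (2.48 to 5.99). The Ccl7 and Ccl8 bins lie upstream of their genes and count only because a start within 2500 bp of a bin was accepted. Counts were highest for the nearest gene, while the ratios lay between 2.04 and 4.21. The lowest, with 67 counts and an interval of 1.58 to 2.59, was that of a second Ccl2 bin, 25 kb away and near no other gene's start. Its interval lies below that of Ccl8. The bin took part in 27 interactions and was listed with 21 of 59 possible bins of the span (35.6%). The highest ratio of the cluster joined Ccl1 over 145 kb to the bin that Ccl2 shares with Gm17268, with 46 counts and 6.81 (4.98 to 9.08).

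On chromosome 8, Ccl22, Cx3cl1 and Ccl17 (94745590 to 94812036) had 3 interactions each. Ccl17 and Ccl22 are the ligands of Ccr4 and attract T helper cells of type 2, and Cx3cl1 is the membrane-bound fractalkine. All 3 contacted chr8:94700001-94705000, an intergenic bin 6.22 kb from the start of Pllp that holds transfer RNA genes in RefSeq. Ccl17, the farthest at 110 kb, had 70 counts and a ratio of 6.46 (5.04 to 8.17), Cx3cl1 at 70 kb had 93 counts and 2.29 (1.85 to 2.81), and Ccl22 at 40 kb had 91 counts and 2.12 (1.71 to 2.6). The other Ccl17 bin, at 105 kb, had 48 counts and 3.1 (2.28 to 4.11), an interval that overlaps those of Cx3cl1 and Ccl22. For Ccl17 and for Ccl22, 2 of the 3 interactions ended in this bin, which took part in 32 interactions in all and was listed with 10 of 21 possible bins of the span (47.6%). The third contact of Ccl22 was 60 kb downstream, 7.95 kb from the Ccl17 start, with 27 counts and 2.65 (1.75 to 3.85).

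Ccl24, an eotaxin that attracts eosinophils, and its neighbour Ccl26 on chromosome 5 (135560448 to 135573049) both contacted the shared start region of Mdh2 and Styxl1. Ccl26 had 64 counts and a ratio of 5.03 (3.87 to 6.42) over 215 kb, and Ccl24 had 74 counts and 3.75 (2.95 to 4.71) over 205 kb. Ccl26 had 9 interactions and Ccl24 had 3, and all 12 lay upstream. Mdh2 encodes mitochondrial malate dehydrogenase.

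The neutrophil chemoattractant genes on chromosome 5 (90759360 to 90905938) had few contacts with low counts. Cxcl2 had 3, Cxcl1 and Cxcl15 2 each, Cxcl5 1 and Cxcl3 0, so that the 8 interactions summed to 95 observed counts, against 7636 for Cxcr4. All 8 lay upstream, at 285 kb or more. Cxcl1 and Cxcl2 both reached the start of Cox18, with 8 counts each and ratios of 4.8 (2.07 to 9.46) over 665 kb and 5.39 (2.33 to 10.6) over 680 kb. The highest count was 20, between Cxcl2 and a bin in Rassf6 at 300 kb, with a ratio of 4.77 (2.92 to 7.37). Counts of this size leave wide intervals. At the receptor end, Cxcr1 and Cxcr2 on chromosome 1 both contacted the start of Ctdsp1, with 62 counts and 4.75 (3.64 to 6.08) for Cxcr1 and 25 counts and 2.22 (1.44 to 3.28) for Cxcr2.

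Cxcl9 and Cxcl10 (chromosome 5, 92321347 to 92348889), interferon-induced ligands of T cells, had 1 and 4 interactions. Cxcl10 had its highest ratio with an intronic bin of Parm1, 765 kb away, with 12 counts and 7.98 (4.12 to 13.9), and its highest count, 73, with the start of Sdad1 at 35 kb, with a ratio of 2.47 (1.93 to 3.1). The promoter words of Cxcl10 are those printed above. Cxcl9 had 34 counts and 2.38 (1.65 to 3.33) over 40 kb from a bin also near the start of Art3.

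Among genes outside these clusters, Ccl25, a ligand of thymus and gut, had the highest count of the family, 402, with a bin of Elavl1 10 kb away and a ratio of 3.17 (2.87 to 3.5). That bin pair lies at the start of Elavl1, a ubiquitous RNA-binding protein gene, and 52 of the 63 interactions of Ccl25 cannot be told apart from those of Elavl1. The highest ratio at Ccl25 was with the start of Retn, which encodes resistin, 670 kb away, with 20 counts and 5.84 (3.57 to 9.03). That pair too comes from a bin near the start of Elavl1 and cannot be given to either gene. Cxcl16, the ligand of Cxcr6, had 10 interactions, all at bins near the start of Zmynd15, with up to 307 counts at Med11 10 kb away and a ratio of 2.04 (1.82 to 2.29). One of its partners over 30 kb was the start of Arrb2, which encodes a beta-arrestin that regulates chemokine receptors, with 200 counts and 2.31 (2 to 2.65).

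Cxcr5, the receptor that brings B cells to follicles, had 23 interactions, 12 of them with starts of other genes, and 7 met the start of Ddx6 with up to 119 counts and a ratio of 4.28 (3.55 to 5.12). Ccr10 had 15, 12 at a bin near the starts of Cntnap1 and Plekhh3 and 3 at one near that of Cntnap1, with the highest ratio of 6.14 (5.26 to 7.12) and 173 counts at Psmc3ip. Ccr9 had its highest count, 136, with the start of Lztfl1 at 45 kb and a ratio of 3.43 (2.88 to 4.06). Ccr7, which guides dendritic cells to lymph nodes, had 4, all downstream at starts of other genes, with 51 counts and 2.66 (1.98 to 3.5) at Top2a. Ccr8 and Ccl28 had 2 each, Cxcl17 had 4, and Ccr4 had 1, 85 kb upstream in an intergenic bin, with 59 counts and 4.98 (3.79 to 6.43).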

How the data were processed

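H3K4me3 HiChIP was measured in 4 samples, 2 treated with IL-4 and 2 basal, grouped by their titles. The deposited observed counts are whole numbers of read pairs per pair of 5-kb bins, which the authors obtained by running MAPS, anchored on H3K4me3 peaks, after merging the 4 samples. The expected counts come from the authors' MAPS model. Each pair also carries a deposited FDR, the adjusted p-value from that model, at most 0.01. The deposited −log10 p of each cluster was not used. Bowtie2, bedtools and mm10 are named, without versions, in the submitters' processing notes.

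A gene had an interaction where either bin held, or lay within 2500 bp of, a start of one of its protein-coding transcripts (GENCODE M21 basic). Bins were otherwise called exon, intron or intergenic. Members whose starts lay under 500 kb apart formed 1 gene cluster. Distances are between bin starts, and ratios are observed over expected. No sample-level columns exist, so no group test was made. The counting was tested on simulated data.

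Genes named with single interactions are the 10 with most interactions, the leading interactions of the family and of each cluster by count and by ratio, and members chosen for their role. Members and lists were chosen with earlier results of these data known. 1 gene that fits the naming rule is not reported here. Alternatives covered the promoter window, the FDR, count and ratio limits, deposited clusters and distance. Computation used Python 3.11.15 with pandas 2.3.3, numpy 2.4.6 and scipy 1.17.1.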

Additional observations from a re-analysis of the deposited data

How the results depend on the processing

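No paired analysis was possible because the listed values are pooled over the 4 samples and carry no replicate. The interactions of the family numbered 453. They fell to 287 with a start counted only inside its bin, to 271 at an FDR under 1e-06, to 129 at a ratio of at least 4, and to 58 with 1 interaction per deposited cluster, where only the pair of lowest FDR was kept. Under that last setting 26 members had an interaction (46.4%, against 60.8% of all genes), the median per member was 0, the median ratio was 4.2 and 5.17% of interactions joined 2 members. The median ratio was 3.43 at the stricter FDR, 4.91 at a ratio of at least 4 and 3 without Cxcr4, against 3.15. Interactions that joined 2 members made up 1.77%. The other 54 of 65 values stayed within 1.5 times (counts) or within the 95% interval (medians and shares). That interval was rank-based for a median and exact binomial for a share. It takes bin pairs or genes as independent, which neighbouring bin pairs are not, so it serves only as a yardstick. The settings with symbols that have no letter after the number (51 genes, 444 interactions, 39 with at least 1), without Cxcr4 (338 interactions) and without the bin of unknown bases were added after seeing the data. Counting intervals were wide where counts were low, as for Cxcl1 and Cxcl2, whose counts were 20 or fewer.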

Other observations

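Of 15 chemokine-like genes outside the naming rule, 12 had at least 1 interaction, with a median of 5, against 70.4% and a median of 4 over all genes. C3ar1, the receptor of complement fragment C3a, had 33, Cklf had 30, Cmklr1, the chemerin receptor, had 17, and the platelet chemokine genes Pf4 and Ppbp had 16 and 15. Ccrl2, Fpr1 and Xcl1 had 0.

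Of 38 genes that carry the signal of chemokine receptors, 36 had at least 1 interaction, with a median of 15. Over all genes 70.4% had at least 1, with a median of 4, and the 16 receptor genes had a median of 5. Gnaq, a G protein subunit gene, had 118, Rgs2 and Gnb2 had 80 each, Gnai3 had 77 and Arrb2 had 76, while Pik3r5 and Rgs18 had 0. All 22 genes in the list of regulators of chemokine genes had at least 1, with a median of 27, against the same 70.4% and median of 4. Jun, a subunit of AP-1, had 246, Nfkbiz 75, Nfkb2 71, Cebpb 67, and Stat6, the factor activated by IL-4, and Spi1, which encodes PU.1, 41 each. These lists are of unlike size and gene density, and no test was made.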
